A study of Mus musculus with 16 samples.

Results

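Cultures of B16-F10, a melanoma line from mouse skin labelled wild type, were incubated for 24 hours with the monoclonal antibody Mel322-34 or with MGO.53, an isotype control, and their polyadenylated RNA was sequenced. The comparison was taken by label, with no use of measured values: 8 of the 15 libraries analysed entered it, 4 of Mel322-34 and 4 of MGO.53, numbered replicates 1 to 4 in each group and all of batch 1. Of 49164 gene identifiers with read counts, 14633 passed a filter on low counts and were tested. All groups were the same line in the same medium with serum and antibiotics, so the antibody is the difference the labels give. Libraries of the antibodies Mel321-31 (n = 4) and Mel321-35 (n = 2 in batch 1), made in the same way, shared the estimate of the spread and serve at the end to test where the response to Mel322-34 differed from theirs. The labels call the libraries biological replicates but do not say whether each came from a separate culture, nor at which antibody dose; the p-values therefore measure the spread between the libraries, which may be technical.

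The series' title presents its antibodies as decoys that block extracellular heat shock protein 70. HSP70 proteins are chaperones that fold proteins inside the cell. Outside the cell they are reported to bind scavenger and Toll-like receptors and to act as signals for the cells that release them. Several of the genes with the smallest p in the comparison are targets of TGF-beta signalling. In that pathway the ligand joins type I and type II receptor kinases, the receptors phosphorylate SMAD proteins, and SMAD complexes switch on target genes, among them inhibitors that close the loop. In melanoma that pathway is known for its links to invasion, matrix production and growth arrest.

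Library totals ran from 29.1 to 35.0 M counts with Mel322-34 and from 19.4 to 33.5 M with MGO.53, a difference of 5.82 M in the means (exact two-sided permutation test, p = 0.114). The mitochondrial share of counts ran from 1.96 to 2.17% and from 1.95 to 2.47% (exact two-sided permutation test, p = 0.200). All 9 melanocyte markers were detected, with summed levels of 31071 to 32367 CPM (counts scaled to the library total) with Mel322-34 and 31342 to 32171 CPM with MGO.53. Of 21 epithelial markers, 5 were at 0 in all 8 libraries, among them Epcam, Cldn4, Cldn7 and Muc16, and the summed level of the list ran from 8.98 to 22.7 CPM with Mel322-34 and from 15.6 to 27.7 CPM with MGO.53. Fibroblast, macrophage and dendritic cell, lymphocyte and endothelial markers each summed to under 50 CPM in every library. In bulk RNA, fewer cells of a type and less RNA per cell cannot be told apart.

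A gene was called when edgeR's quasi-likelihood test gave a Benjamini-Hochberg adjusted p under 0.05 over all genes tested. With Mel322-34, 1005 genes were called (6.87%), of which 589 rose (4.03%) and 416 fell (2.84%). The changes were small: the median absolute log2 fold change was 0.19 among called genes and 0.10 among all genes tested. Over a 1.5-fold change lay 10 of the genes that rose and 20 of those that fell. The 14 called genes beyond 2-fold were all of low level, with an average of at most 0.73 on the log2 CPM scale. The libraries of the groups did not overlap for 861 of the 1005 called genes (85.7%), against 12.9% of all genes tested, which divide into 7.03% higher and 5.92% lower. The number called depended on single libraries: it was 327 when Mel322-34 replicate 3 was left out. Leaving out MGO.53 replicate 2 gave 397 and leaving out MGO.53 replicate 4 gave 504. With upper quartile scaling in place of TMM, 483 genes rose and 555 fell, so the excess of rises over falls turned with the scaling.

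**Figure D1:**
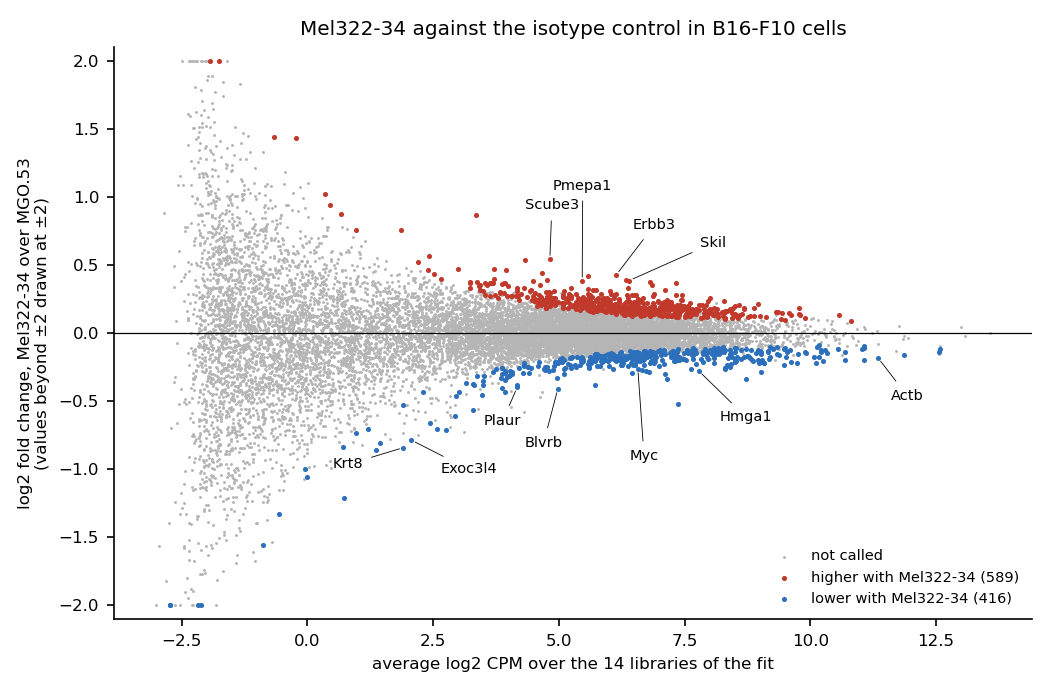
Log2 fold change of every tested gene, Mel322-34 over MGO.53, against its average log2 CPM over the 14 libraries of the fit; each point is a gene, red where it rose (589 genes), blue where it fell (416 genes) and grey where it was not called. Most called genes lie close to the line of no change, and Scube3, Erbb3, Pmepa1 and Skil stand above their neighbours of like level.

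Fold changes moved with transcript length. Across 10170 genes above a log2 CPM of 2, the log2 fold change had a Spearman correlation of 0.51 with the length of the longest annotated transcript and of -0.45 with its GC content, given as a description over genes that share the same 8 libraries. In the class of the shortest transcripts the median log2 fold change was -0.088, and 4.93% of the genes fell. In the class of the longest it was 0.11, and 18% of the genes rose while 0.205% fell. The correlation between a library's levels and transcript length was 0.30, 0.21, 0.50 and 0.18 in the Mel322-34 replicates and -0.20, -0.35, -0.26 and -0.30 in the MGO.53 replicates, so the groups did not overlap (exact two-sided permutation test, p = 0.0286, the smallest that 4 against 4 libraries allow, and 0.0857 adjusted over 3 library measures). In the Mel321-31 replicates it was -0.40, 0.37, 0.21 and 0.36. Whether length, RNA quality or library preparation takes part in any call was not tested. Many but not all of the gene groups below therefore carry their count after each library's trend on length was removed. That fit called 404 genes, 173 higher (1.18%) and 231 lower (1.58%), of which 283 were among the 1005. With the trend on GC content removed as well, 288 genes were called, and genes named below by the rule that lost their call there but not with length alone are marked.

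**Figure D2:**
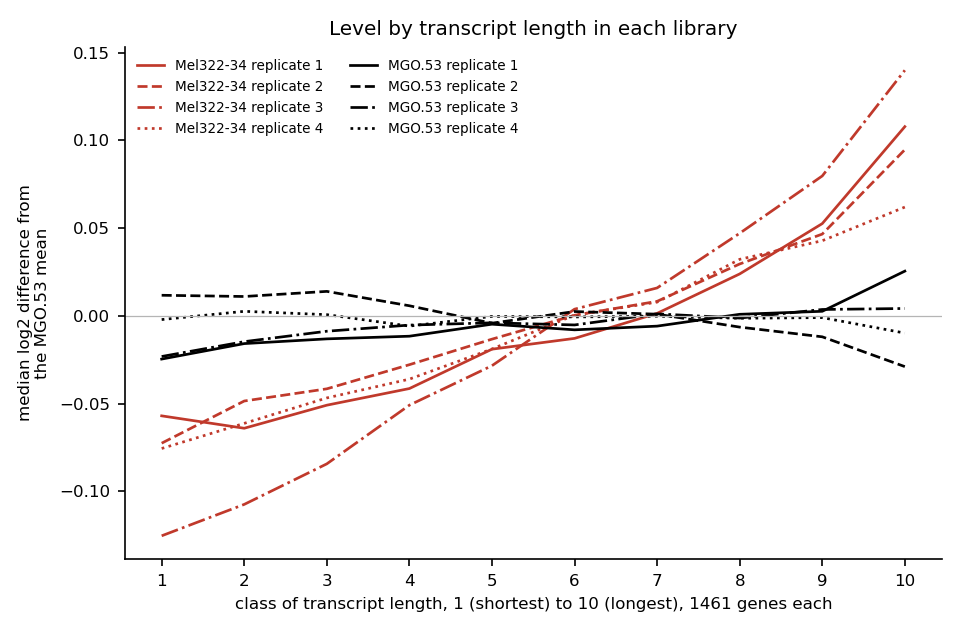
Median log2 difference from the MGO.53 mean in 10 classes of transcript length with 1461 genes each, drawn as a line for each of the 8 libraries. The red Mel322-34 lines run from below 0 in the shortest class to above 0 in the longest, most steeply in replicate 3, and the black MGO.53 lines stay closer to 0.

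Some genes tied to TGF-beta signalling were among the clearest rises. Of 29 tested genes on a list of TGF-beta ligands, receptors, SMADs and targets, 8 rose (27.6%, against 4.03% of all genes tested) and 1 fell. This list and those below were written with earlier results of these data known, so such shares describe the lists and are no test. The list's median log2 fold change was 0.019, against -0.001 for all genes tested, and 18 of its values were above 0. Its median transcript length was 5074 nt, against 3117 nt over all genes tested. In the length class from 5036 to 6572 nt, 9.17% of all genes rose. After removal of the length trend the list's median was -0.0022. With the length trend removed, 5 members rose, among them Scube3, Spsb1, Skil and Pmepa1. These were also called in each of the 8 fits that left out 1 library.

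Scube3, a secreted protein reported in human lung cancer cells to bind the type II TGF-beta receptor, measured 36.1, 33.97, 32.8 and 34.9 CPM in Mel322-34 replicates 1 to 4 and 23.8, 25.2, 22.8 and 23.1 CPM in the MGO.53 replicates. The ranges lay far apart relative to the spread within each group (log2 fold change 0.54 ± 0.057 (SE), edgeR adjusted p = 2.58e-06). Spsb1, an adaptor of a ubiquitin ligase, measured 23.2, 23.8, 24.5 and 21.8 CPM and 15.6, 15.4, 17.8 and 15.6 CPM, again without overlap (0.54 ± 0.073, edgeR adjusted p = 8.24e-05).

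Skil and Pmepa1 encode feedback inhibitors, SnoN at the level of SMAD complexes and a membrane protein that holds back receptor-activated SMADs. Skil stood at 92.6, 95.7, 98.1 and 93.6 CPM with Mel322-34 and at 72.9, 75.2, 67.9 and 75.1 CPM with MGO.53 (log2 fold change 0.39 ± 0.048, edgeR adjusted p = 4.07e-05). Pmepa1 measured 50.7, 49.9, 55.9 and 51.5 CPM and 38.7, 40.5, 40.2 and 40.6 CPM (0.38 ± 0.049, edgeR adjusted p = 4.81e-05). In both genes the lowest Mel322-34 library was above the highest MGO.53 library. Fn1, the matrix protein fibronectin, rose less (0.24 ± 0.048, edgeR adjusted p = 0.00397), and its adjusted p was 0.0799 with the length trend removed.

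On the side of receptors and ligands the changes were smaller and less firm. Tgfbr1, the type I receptor, rose from 42.3 ± 1.18 to 48.4 ± 1.95 CPM (SD, n = 4; log2 fold change 0.20 ± 0.056, edgeR adjusted p = 0.0321). That call was lost with the length trend removed (edgeR adjusted p = 0.139) and without Mel322-34 replicate 1 or 3 or MGO.53 replicate 1, 2 or 4 (edgeR adjusted p from 0.0524 to 0.122). Smurf2, a ubiquitin ligase that removes receptors and SMADs, rose with a log2 fold change of 0.18 ± 0.047 (edgeR adjusted p = 0.0218, lost without Mel322-34 replicate 3 or MGO.53 replicate 1 or 4, adjusted p from 0.0761 to 0.0862, and 0.109 with the length trend removed). Tgfb1, the ligand, fell from 16.5 ± 2.09 to 13.1 ± 1.63 CPM (-0.33 ± 0.093, edgeR adjusted p = 0.0315). Its call was lost without Mel322-34 replicate 3 or MGO.53 replicate 2 or 4 (adjusted p from 0.0974 to 0.151) and with the length trend removed (0.0618). These receptor and ligand genes and Smurf2 fall outside the rule that picked the genes named here and were added after their values were seen. The other 20 members, among them Smad2, Smad3, Smad4, Smad7, Tgfbr2, Id1 and Tgfbi, did not pass the test, with log2 fold changes from -0.71 to 0.070 and edgeR adjusted p from 0.141 to 0.973.

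**Figure D3:**
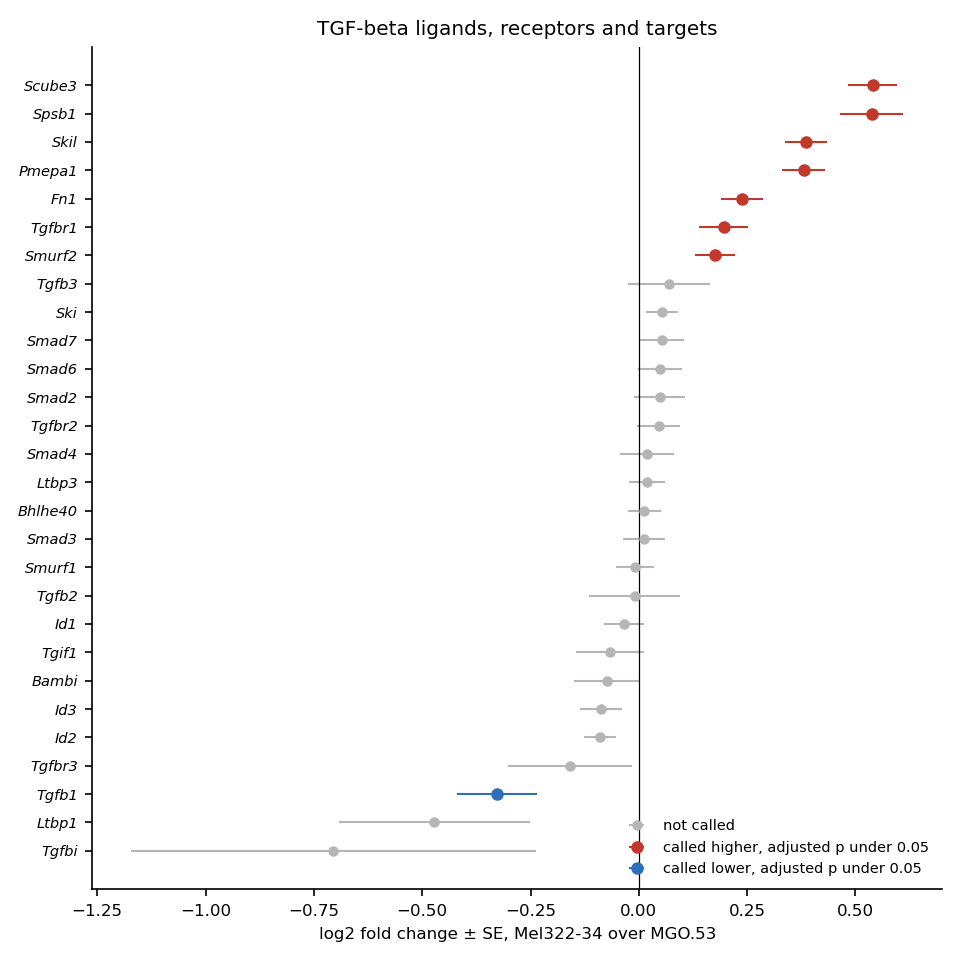
Log2 fold change with its standard error of members of the TGF-beta list, all that were not called and the called ones named in the text, Mel322-34 over MGO.53, in order of size; red points were called higher, the blue point lower and grey points were not called. Scube3, Spsb1, Skil and Pmepa1 stand apart at 0.38 to 0.54, and the members from Id2 at -0.090 to Tgfb3 at 0.070 lie close to 0.

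The promoter of Scube3 is shown because this member has a large change, a RefSeq promoter entry and a match to the motif searched. The window of Spsb1, whose change was of like size, was searched too and held 0 matches. Skil, Pmepa1, Fn1 and Smad7 are named only. The 250 bases before the start of Scube3 (RefSeq, GRCm38.p6, chr17:28142059-28142308, plus strand) hold the motif CAGAC at position -122 from the start, in capitals. SMAD proteins are known to bind this core. CAGAC was searched on both strands. It occurs in 42.2% of all 32851 promoter windows of that length, in 11 of 17 tested list members with an entry and in 3 of 5 called members with an entry, so a match in these letters is common and is a description only. A list member counted as a match if any of its windows matched, so its share and that of all windows are not of like units.
Scube3: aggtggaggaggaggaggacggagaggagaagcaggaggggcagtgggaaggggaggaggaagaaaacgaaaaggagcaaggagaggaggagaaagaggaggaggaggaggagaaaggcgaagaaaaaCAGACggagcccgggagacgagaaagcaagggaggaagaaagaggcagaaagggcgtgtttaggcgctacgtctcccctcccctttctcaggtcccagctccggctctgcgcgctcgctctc

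Beyond the TGF-beta list, the smallest adjusted p was that of Erbb3, a receptor for neuregulins that signals as the partner of other ERBB kinases. It stood at 81.9, 81.5, 82.03 and 83.4 CPM in the Mel322-34 replicates and at 58.7, 58.2, 64.3 and 63.3 CPM with MGO.53. The Mel322-34 values were almost level with each other, and all lay well above the control (log2 fold change 0.43 ± 0.045, edgeR adjusted p = 2.58e-06). Endod1, a nuclease-domain protein, rose with a log2 fold change of 0.42 ± 0.052 (edgeR adjusted p = 4.07e-05), and Utrn, the dystrophin relative utrophin, by 0.36 ± 0.047 (edgeR adjusted p = 4.81e-05). Slc6a15, a transporter of neutral amino acids, measured 29.1, 28.5, 28.3 and 28.6 CPM and 20.96, 20.5, 22.1 and 20.5 CPM without overlap (0.44 ± 0.060, edgeR adjusted p = 7.03e-05). Tnnt2, a troponin subunit of heart muscle, rose with a log2 fold change of 0.46 ± 0.095 (edgeR adjusted p = 0.00452) and Klhl11, a substrate adaptor of a cullin ligase, by 0.47 ± 0.10 (edgeR adjusted p = 0.00615). These 6 genes were called with the length trend removed and in all 8 fits that left out 1 library.

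Genes of the cell surface and the matrix changed in both directions. Of 22 tested genes of the urokinase system and the metalloproteinases, 3 rose (13.6%, against 4.03% of all genes tested) and 1 fell (4.55%, against 2.84%), and the same 4 were called with the length trend removed. The number that rose was 5 without MGO.53 replicate 1. Plaur, the receptor that holds urokinase on the cell surface, measured 16.2, 17.1, 16.2 and 14.6 CPM with Mel322-34 and 18.8, 23.6, 21.6 and 20.95 CPM with MGO.53, so every treated library was below every control library (log2 fold change -0.40 ± 0.076, edgeR adjusted p = 0.00255). Adam10, a sheddase that releases the outer parts of membrane proteins, rose from 229 ± 2.98 to 269 ± 10.8 CPM (SD, n = 4; 0.23 ± 0.035, edgeR adjusted p = 0.000307), and Adamts1, a protease of the proteoglycan versican, from 154 ± 6.96 to 187 ± 6.78 CPM (0.28 ± 0.051, edgeR adjusted p = 0.00185). Among 22 integrin genes 3 rose (13.6%, against 4.03% of all genes tested), and the median log2 fold change was 0.014. They include Itga6 and Itgb1, the chains of a laminin receptor (0.25 ± 0.053 and 0.15 ± 0.032, edgeR adjusted p = 0.0049 and 0.00678). The integrin rises were 4 without Mel322-34 replicate 2, 2 without Mel322-34 replicate 3 and 2 with the length trend removed. Of 27 enzymes of chondroitin and heparan sulfate synthesis 3 rose (11.1%) and 1 fell (3.7%). With the length trend removed 0 rose and 2 fell, and 1 rose when Mel322-34 replicate 3 or MGO.53 replicate 2 or 4 was left out. The largest change of these was that of Chst11, a chondroitin sulfotransferase of low level (5.36, 3.98, 4.23 and 4.77 CPM against 2.72, 3.83, 1.90 and 2.54 CPM; 0.76 ± 0.21, edgeR adjusted p = 0.0255), whose call held only without replicate 2 of either group. With each of the other 6 libraries left out in turn, its edgeR adjusted p ran from 0.0511 to 0.0842. It was also not called with the length trend removed (edgeR adjusted p = 0.0505), with GC removed as well (0.0628) or with the log2 sum of the epithelial markers as a covariate. S100a6, a calcium-binding protein common in motile cells, measured 10.6, 11.2, 9.26 and 10.3 CPM with Mel322-34 and 12.9, 15.05, 12.9 and 15.9 CPM with MGO.53 (-0.45 ± 0.099, edgeR adjusted p = 0.00678). In both groups its highest libraries, replicates 2 and 4 of MGO.53 and replicate 2 of Mel322-34, were also those with the highest epithelial sums. It was not called with that sum as a covariate, nor with length and GC trends removed (edgeR adjusted p = 0.0555).

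**Figure D4:**
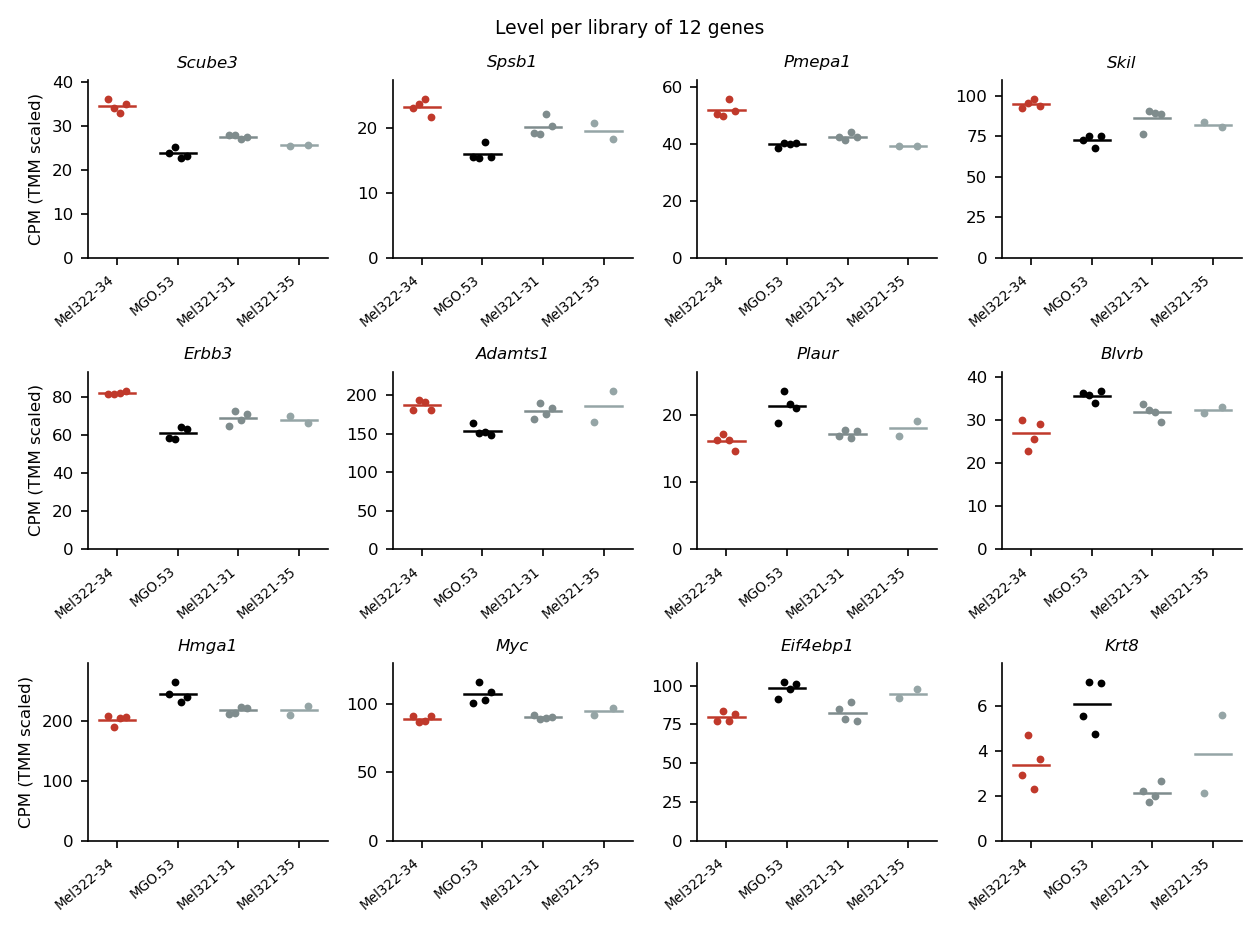
Level in CPM of 12 genes in each library of Mel322-34, MGO.53, Mel321-31 and Mel321-35 (batch 1); points are libraries and bars are group means, on axes that start at 0. Scube3, Spsb1, Pmepa1, Skil, Erbb3 and Adamts1 are higher with Mel322-34 than in every MGO.53 library, and Plaur, Blvrb, Hmga1, Myc, Eif4ebp1 and Krt8 are lower.

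Among the genes that fell with the smallest p, Hmga1, an architectural chromatin protein of proliferating cells, measured 207, 190.0, 204 and 206 CPM with Mel322-34 and 244, 264, 232 and 239 CPM with MGO.53 (log2 fold change -0.28 ± 0.040, edgeR adjusted p = 0.000176). Myc stood at 90.7, 86.9, 87.3 and 91.03 CPM and 100.2, 116, 103 and 109 CPM (-0.26 ± 0.043, edgeR adjusted p = 0.000729). Neither gene's groups overlapped. Mknk2, a kinase that phosphorylates the cap-binding factor eIF4E, fell with a log2 fold change of -0.20 ± 0.032 and Eif4ebp1, which binds and blocks the same factor, with a log2 fold change of -0.30 ± 0.049 (edgeR adjusted p = 0.000576 and 0.00077). All 4 were called with the length trend removed and in all 8 fits that left out 1 library. Of 32 genes of a Myc and ribosome biogenesis list, 3 fell including Myc (9.38%, against 2.84% of all genes tested, median log2 fold change -0.056). The falls were 5 without Mel322-34 replicate 2, and 2 without Mel322-34 replicate 1 or 3 or MGO.53 replicate 1, 3 or 4.

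Immediate early and ERK feedback genes, which follow growth factor signals within an hour, gave 4 falls and 1 rise among 35 tested (11.4% and 2.86%), with 2 falls when Mel322-34 replicate 3 or MGO.53 replicate 4 was left out. The nuclear receptor Nr4a1 measured 71.6, 64.1, 59.96 and 67.1 CPM with Mel322-34 and 76.2, 76.9, 74.9 and 75.3 CPM with MGO.53 (-0.21 ± 0.048, edgeR adjusted p = 0.0102, lost without Mel322-34 replicate 3 at 0.0610 and with length and GC trends removed at 0.0955). Of 26 actin and SRF target genes 5 fell (19.2%), and 3 when MGO.53 replicate 2 was left out. Actb, Pfn1 and Cfl1, which encode beta-actin, profilin and cofilin, fell with a log2 fold change of -0.18 ± 0.030, -0.21 ± 0.038 and -0.14 ± 0.032 (edgeR adjusted p = 0.000746, 0.00143 and 0.00917), with no overlap between groups in any of them and with calls that stood after removal of the length trend. With GC removed as well Cfl1 was not called (edgeR adjusted p = 0.0626). The metallothionein Mt2, which binds zinc, fell from 163 ± 6.51 to 129 ± 10.8 CPM (SD, n = 4; -0.34 ± 0.051, edgeR adjusted p = 0.000307). Sod3, the extracellular superoxide dismutase, fell with a log2 fold change of -0.38 ± 0.091 (edgeR adjusted p = 0.0115) and Exoc3l4 with a log2 fold change of -0.79 ± 0.17 (edgeR adjusted p = 0.0066).

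Many NRF2 targets, the genes that the oxidant-sensing factor NRF2 switches on, fell. Of 27 tested, 12 fell (44.4%, against 2.84% of all genes tested), the median log2 fold change was -0.10, and 23 values were below 0. With the length trend removed 9 fell. Without Mel322-34 replicate 3 or MGO.53 replicate 2, 7 were called, and 8 without MGO.53 replicate 3 or Mel322-34 replicate 4. Blvrb, a reductase of biliverdin and flavins, measured 30.1, 22.7, 25.6 and 29.1 CPM with Mel322-34 and 36.2, 35.7, 33.9 and 36.9 CPM with MGO.53 (-0.41 ± 0.070, edgeR adjusted p = 0.00115). Every treated library was below every control library. Gstm1, a glutathione transferase, fell with a log2 fold change of -0.26 ± 0.047 and Srxn1, which repairs peroxiredoxins, with a log2 fold change of -0.16 ± 0.034 (edgeR adjusted p = 0.00146 and 0.00678, the latter 0.0508 with length and GC trends removed).

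Iron storage and uptake moved in opposite directions. The ferritin chains fell, Fth1 from 2259.6 ± 97.5 to 1972 ± 38.1 CPM and Ftl1 from 3938 ± 81.8 to 3515 ± 160.4 CPM (SD, n = 4; -0.20 ± 0.038 and -0.16 ± 0.034, edgeR adjusted p = 0.00269 and 0.0043), while the transferrin receptor Tfrc rose from 438 ± 7.21 to 496 ± 24.7 CPM (0.18 ± 0.038, edgeR adjusted p = 0.00549). The groups did not overlap in any of them. After removal of the length trend Fth1 and Tfrc stayed called (edgeR adjusted p = 0.00695 and 0.0182) and Ftl1 did not (0.188). With GC removed as well Tfrc was not called either (edgeR adjusted p = 0.132), nor was it with the epithelial covariate. On the haem and iron list, which shares Blvrb, Hmox1 and the ferritins with the NRF2 list, 5 of 24 fell (20.8%) and 2 rose (8.33%). Over all genes tested 2.84% fell and 4.03% rose. The falls on the list were 3 without Mel322-34 replicate 3 or 4 or MGO.53 replicate 2, 3 or 4, and 1 gene rose without Mel322-34 replicate 3. With the length trend removed 2 fell and 1 rose.

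The promoters of Srxn1 and Osgin1 are shown because both called genes hold letters of the antioxidant response element, the site that NRF2 is known to bind, searched on both strands as TGACNNNGC or TGAGNNNGC and printed in capitals. Osgin1 (-0.26 ± 0.064, edgeR adjusted p = 0.0136, and 0.175 with length and GC trends removed, lost without Mel322-34 replicate 3 at 0.0579 or MGO.53 replicate 3 at 0.0533) was named after its values were seen. The windows are the 250 bases before the start in RefSeq, GRCm38.p6: chr2:152105274-152105523, plus strand, with matches at -158 and -45, and chr8:119436897-119437146, plus strand, with a match at -99. The element occurs in 23.01% of all promoter windows, in 11 of 22 tested NRF2 targets with an entry and in 4 of 10 that fell. The first share counts windows and the others count genes with a match in any of their windows, so they are not of like units. The windows of Gstm1, named above, were searched too and held 0 matches.
Srxn1: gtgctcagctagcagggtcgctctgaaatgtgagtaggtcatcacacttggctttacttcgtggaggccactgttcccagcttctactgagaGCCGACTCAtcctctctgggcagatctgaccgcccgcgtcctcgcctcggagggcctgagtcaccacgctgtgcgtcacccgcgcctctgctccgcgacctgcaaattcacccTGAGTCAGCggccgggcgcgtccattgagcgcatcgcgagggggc
Osgin1: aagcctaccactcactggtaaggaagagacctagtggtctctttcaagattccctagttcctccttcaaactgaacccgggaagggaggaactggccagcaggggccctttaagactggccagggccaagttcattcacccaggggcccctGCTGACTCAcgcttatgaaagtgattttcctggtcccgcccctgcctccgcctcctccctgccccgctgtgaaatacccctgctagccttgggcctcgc

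Genes of the ribosome and of mitochondrial respiration were lower as groups. Of 86 cytosolic ribosomal protein genes 44 fell (51.2%, against 2.84% of all genes tested), with a median log2 fold change of -0.15, and the others did not pass the test. Relative to the MGO.53 mean the median of the list was -0.085, -0.16, -0.21 and -0.11 in the Mel322-34 replicates and lay between -0.013 and 0.026 in the MGO.53 replicates. Every treated library was thus below every control library, and replicate 3, which had the strongest length trend, was the lowest. These are short transcripts, with a median of 1048 nt against 3117 nt over all genes tested, and with the length trend removed 12 fell and 1 rose (median -0.060). Without Mel322-34 replicate 3, 16 fell, and 21 without MGO.53 replicate 2 or 4. Reads of ribosomal protein genes can be shared with their many processed pseudogenes, so single values are uncertain.

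Rpl37 measured 331, 306, 304 and 311 CPM with Mel322-34 and 372, 379, 353 and 381 CPM with MGO.53, with no overlap between the groups. Rpl37, Rpl19 and Rpl28 fell with a log2 fold change of -0.25 ± 0.044, -0.22 ± 0.040 and -0.22 ± 0.041 (edgeR adjusted p = 0.00148, 0.00188 and 0.00218) and stayed called with the trend removed. With GC removed as well Rpl37 stayed called and Rpl19 and Rpl28 did not (edgeR adjusted p = 0.0346, 0.161 and 0.0688). The elongation factor Eef1a1, made under the same kind of control as ribosomal proteins, fell with a log2 fold change of -0.14 ± 0.025 (edgeR adjusted p = 0.00176). In all 5 of 68 translation factors fell (7.35%, against 2.84% of all genes tested).

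The starts of some of these genes are shown because they hold letters of a terminal oligopyrimidine tract, the feature through which mTOR is known to set their translation together. Each window runs from 10 bases before to 20 after the start in RefSeq (GRCm38.p6), 30 bases in all, with the tract in capitals, defined as C followed by at least 4 bases of C or T, beginning within 2 bases of the start, on the strand of the gene. Such a start occurs in 8.96% of all promoter windows, in 23 of 62 tested cytosolic ribosomal protein genes with an entry (37.1%) and in 11 of 32 that fell (34.4%). A gene counted if any of its windows held such a start, so the shares of genes and of windows are not of like units. The windows are chr7:4792955-4792984, plus strand for Rpl28, chr3:90213629-90213658, minus strand for Rps27, chr4:86857348-86857377, minus strand for Rps6, chr2:32961702-32961731, plus strand for Rpl12 and chr9:78481705-78481734, minus strand for Eef1a1. Rps27, Rps6 and Rpl12 fell with a log2 fold change of -0.26, -0.21 and -0.16 on the log2 scale (edgeR adjusted p = 0.00235, 0.00668 and 0.0336, and 0.0423, 0.0582 and 0.0614 with the length trend removed), and were chosen for their sequence after their values were seen.
Rpl28: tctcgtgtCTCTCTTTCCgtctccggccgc
Rps27: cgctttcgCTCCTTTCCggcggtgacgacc
Rps6: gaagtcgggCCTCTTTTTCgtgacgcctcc
Rpl12: agcaggatccgtCTTTTCggctttcggctc
Eef1a1: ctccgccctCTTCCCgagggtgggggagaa

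Mitochondrial ribosomal proteins fell in 15 of 76 genes (19.7%, median -0.097) and nuclear subunits of oxidative phosphorylation in 18 of 77 (23.4%, median -0.11). After removal of the length trend these numbers were 3 and 4, the latter beside 1 rise. Without Mel322-34 replicate 3 they were 6 and 8, and without MGO.53 replicate 2 they were 6 and 9; without MGO.53 replicate 4 the mitochondrial ribosomal count was 8. Atp5g2, which encodes the ring subunit of ATP synthase, measured 52.7, 38.3, 50.1 and 46.9 CPM and 58.2, 66.3, 57.8 and 62.9 CPM (-0.38 ± 0.075, edgeR adjusted p = 0.00353). Uqcrq of complex III and Ndufb7 of complex I fell with a log2 fold change of -0.26 ± 0.050 and -0.24 ± 0.052 (edgeR adjusted p = 0.00255 and 0.00579), and Mrps7 with a log2 fold change of -0.19 ± 0.041 (edgeR adjusted p = 0.00678). These 4 genes were also called with the length trend removed, but Atp5g2 and Mrps7 were not with GC removed as well (edgeR adjusted p = 0.235 and 0.136), nor was Mrps7 with the epithelial covariate. Of the 7 tested messages made in the mitochondrion itself 1 fell (14.3%, against 2.84% of all genes tested). This count moved both ways with single libraries. It was 4 when control replicate 1 was dropped, 2 when Mel322-34 replicate 4 was dropped and 0 when control replicate 2 was dropped. After removal of the length trend 0 of these messages fell, and 1 fell with GC removed as well. Of 31 proteasome subunits 4 fell (12.9%), among them Psmd3 (-0.15 ± 0.035, edgeR adjusted p = 0.0104, lost without MGO.53 replicate 2 at 0.0507 and with length and GC trends removed at 0.0806). The proteasome count was 1 without Mel322-34 replicate 3, 0 without MGO.53 replicate 2 and 1 with the length trend removed.

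**Figure D5:**
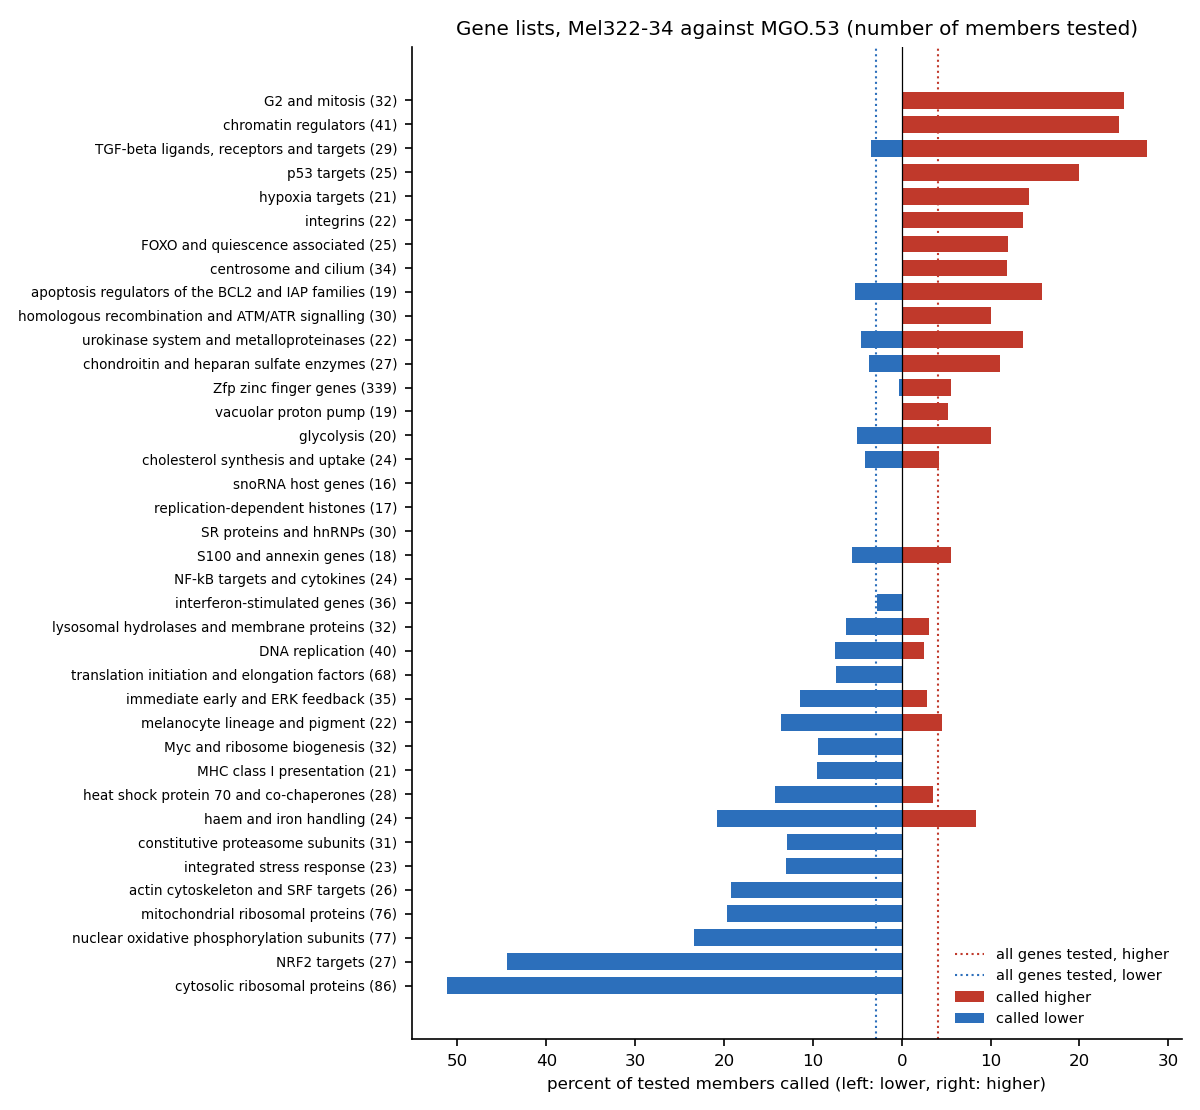
Share of the tested members of each gene list called higher (red, to the right) or lower (blue, to the left), with the number of members tested in brackets; dotted lines mark the shares over all genes tested, 4.03% higher and 2.84% lower. Cytosolic ribosomal proteins (51.2%) and NRF2 targets (44.4%) have the longest blue bars, and the TGF-beta list (27.6%), mitosis genes (25%) and chromatin regulators (24.4%) the longest red bars.

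Some genes of mitosis and of chromatin, many of them with long transcripts, rose. Of 32 genes of G2 and mitosis 8 rose (25%, median 0.048), and 3 with the length trend removed. Aspm, a protein of spindle poles, measured 86.6, 88.7, 98.2 and 93.1 CPM with Mel322-34 and 75.99, 71.3, 73.5 and 70.2 CPM with MGO.53 (0.33 ± 0.050, edgeR adjusted p = 0.000307, and 0.00632 with the trend removed). Top2a, the topoisomerase that untangles chromosomes, rose with a log2 fold change of 0.15 ± 0.032 (edgeR adjusted p = 0.00573, and 0.182 with length and GC trends removed). Cenpf and Mki67, the gene of the Ki-67 antigen, rose with a log2 fold change of 0.23 ± 0.044 and 0.21 ± 0.043 (edgeR adjusted p = 0.003 and 0.00451) but had adjusted p of 0.178 and 0.24 after removal of the trend. The mitosis count was 4 without Mel322-34 replicate 3 or 4 or MGO.53 replicate 3 or 4, and 5 without MGO.53 replicate 1. In DNA replication, 3 of 40 genes fell (7.5%, against 2.84% of all genes tested) and 1 rose (2.5%, against 4.03%). The median was -0.074, and there was 1 fall without Mel322-34 replicate 3. Cdt1, which loads the replicative helicase, stood at 127, 114, 118 and 117 CPM and 141, 145, 135 and 141 CPM and so fell without overlap (-0.24 ± 0.041, edgeR adjusted p = 0.00116).

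Of 41 large chromatin regulators 10 rose (24.4%, median 0.11), and 39 of the 41 values were above 0. Their median transcript length was 8862 nt. With the length trend removed the median was -0.00065 and 1 member, which had not been called before, fell. Bptf, a subunit of the NURF remodeller, rose with a log2 fold change of 0.19 ± 0.043 (edgeR adjusted p = 0.00774, and 0.453 with the trend removed). The number that rose was 2 without Mel322-34 replicate 3. With an MGO.53 library left out it was 3 (replicate 4), 5 (replicate 2) and 6 (replicate 3). Of 339 zinc finger genes of the Zfp series 19 rose (5.60%, near the 4.03% of all genes tested) and 1 fell, and 3 rose with the trend removed. The rises were 6 and 12 without Mel322-34 replicate 3 and 4, and 7 and 9 without MGO.53 replicate 2 and 4. Zfp654 and Zfp638 rose with a log2 fold change of 0.35 ± 0.065 and 0.23 ± 0.039 (edgeR adjusted p = 0.00215 and 0.00115). Zfp638 was not called with the length trend removed (edgeR adjusted p = 0.0511), nor Zfp654 with GC removed as well (0.0527). Homologous recombination and ATM/ATR genes rose in 3 of 30 (10%, against 4.03% of all genes tested), among them Brca2 (0.26 ± 0.062, edgeR adjusted p = 0.013, and 0.234 with the trend removed). Centrosome and cilium genes rose in 4 of 34 (11.8%), among them Cep192 (0.29 ± 0.057, edgeR adjusted p = 0.00348, and 0.085 with length and GC trends removed). Each of these counts was 1 without Mel322-34 replicate 3 or MGO.53 replicate 2. Without MGO.53 replicate 4 they were 1 and 2, and 2 centrosome genes rose without MGO.53 replicate 3. With the length trend removed they were 0 and 1, beside 1 fall on the recombination list.

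Genes tied to growth arrest and cell death gave rises and a fall of small size. Of 25 p53 targets 5 rose (20%, against 4.03% of all genes tested, median 0.044), 4 with the length trend removed. Trp53inp1, which promotes autophagy and cell death downstream of p53, measured 87.5, 92.2, 97.6 and 87.8 CPM with Mel322-34 and 69.2, 73.5, 68.9 and 67.9 CPM with MGO.53 (0.39 ± 0.062, edgeR adjusted p = 0.000616), with all treated libraries higher. Ccng1, cyclin G1, rose with a log2 fold change of 0.15 ± 0.040 (edgeR adjusted p = 0.0197, lost without Mel322-34 replicate 3 at 0.106 or MGO.53 replicate 4 at 0.0539, and with length and GC trends removed at 0.132). The p53 count was 1 without Mel322-34 replicate 3, 2 without MGO.53 replicate 1 or 4 and 3 without Mel322-34 replicate 2 or 4 or MGO.53 replicate 2 or 3. Sesn3, a FOXO target that restrains mTOR, rose from 82.7 ± 2.37 to 100.3 ± 6.27 CPM (SD, n = 4). Its log2 fold change was 0.28 ± 0.048 (edgeR adjusted p = 0.00119, and 0.0624 with length and GC trends removed). Of 25 FOXO and quiescence genes 3 rose (12%, against 4.03% of all genes tested), or 1 without MGO.53 replicate 4. In the BCL2 and IAP families 3 of 19 rose (15.8%, against 4.03% of all genes tested) and 1 fell (5.26%, against 2.84%). The pore-forming killer Bak1 fell with a log2 fold change of -0.20 ± 0.037 (edgeR adjusted p = 0.00233, and 0.0944 with length and GC trends removed). Its antagonist Bcl2 rose with a log2 fold change of 0.21 ± 0.048 (edgeR adjusted p = 0.0104). The Bcl2 call was lost without Mel322-34 replicate 3 (edgeR adjusted p = 0.0546) and with the length trend removed (0.131). In these families at most 1 gene rose without Mel322-34 replicate 3 or MGO.53 replicate 2 or 4, and 2 fell without Mel322-34 replicate 2 or 4. With the length trend removed 0 rose and 2 fell.

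Of 28 tested genes of HSP70, the target named in the series' title, with its relatives and co-chaperones, 1 rose (3.57%, against 4.03% of all genes tested) and 4 fell (14.3%, against 2.84%), with a median of 0.016. The falls were 1 without Mel322-34 replicate 3 and 2 without MGO.53 replicate 1, 3 or 4. With the length trend removed 2 rose and 2 fell, and with GC removed as well 1 rose and 0 fell. Hspa8, the constitutive HSP70, measured 1955, 1918, 1970.3 and 1929 CPM with Mel322-34 and 2059.7, 2069, 1959.9 and 1988 CPM with MGO.53, with overlap and no call (-0.055 ± 0.026, edgeR adjusted p = 0.208). Hspa1b, a stress-induced HSP70, stayed at a low level of 3.59, 4.19, 2.85 and 2.71 CPM and 2.51, 3.46, 3.18 and 2.77 CPM (0.18 ± 0.18, edgeR adjusted p = 0.631). Reads of Hspa1b may be shared with its near-identical neighbour. Hspa13, a microsomal member, rose with a log2 fold change of 0.21 ± 0.048, Hsf1, the factor that drives heat shock genes, fell with a log2 fold change of -0.16 ± 0.039, and Stub1, a ligase that tags HSP70 clients, fell with a log2 fold change of -0.19 ± 0.041 (edgeR adjusted p = 0.0102, 0.0146 and 0.00566). The calls of Hspa13 and Hsf1 were lost without Mel322-34 replicate 3 (adjusted p = 0.0656 and 0.0615). With length and GC trends removed none of the 3 was called (edgeR adjusted p = 0.162, 0.065 and 0.26). Of 8 tested genes reported as receptors of extracellular HSP70, edgeR called 0, with 3 at an unadjusted p under 0.05, and DESeq2 and limma-voom called 0 as well.

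Of 22 genes of the melanocyte lineage and of pigment 3 fell (13.6%, against 2.84% of all genes tested) and 1 rose (4.55%, against 4.03%), with a median of 0.0024. There was 1 fall without MGO.53 replicate 1 or 2. With the length trend removed 1 fell and 0 rose. Pmel, the fibril protein of melanosomes, stood at 6184, 5682, 5956 and 5875 CPM and 6545, 6376, 6426 and 6299.8 CPM (-0.11 ± 0.028, edgeR adjusted p = 0.0149, and 0.129 with the length trend removed). Trpm1, a channel of melanocytes, fell with a log2 fold change of -0.12 ± 0.032 (edgeR adjusted p = 0.0181, lost without MGO.53 replicate 1 at 0.0603 or 2 at 0.0522) and Myo5a, the motor that carries melanosomes, rose with a log2 fold change of 0.19 ± 0.035 (edgeR adjusted p = 0.0025, and 0.287 with the trend removed). In glycolysis 2 of 20 genes rose (10%) and 1 fell (5%), and 1 rose without replicate 2 or 3 of Mel322-34 or replicate 2 or 4 of MGO.53. Pfkl, a phosphofructokinase, measured 177, 182, 168 and 164 CPM and 147, 140.0, 139 and 141 CPM and was clear of the control in every library (0.28 ± 0.039, edgeR adjusted p = 0.000109). Of 21 hypoxia targets 3 rose (14.3%), among them the collagen-modifying enzymes Plod2 and P4ha1 (0.23 ± 0.049 and 0.19 ± 0.044, edgeR adjusted p = 0.00615 and 0.00865).

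Levels of interferon, antigen presentation and epithelial genes varied widely within both groups. Krt8, an epithelial keratin, measured 2.94, 4.72, 2.32 and 3.64 CPM with Mel322-34 and 5.56, 7.08, 4.78 and 7.05 CPM with MGO.53 (-0.84 ± 0.22, edgeR adjusted p = 0.0206) and its partner Krt18 2.51, 4.90, 1.66 and 2.37 CPM and 3.59, 7.50, 4.86 and 3.97 CPM (-0.78 ± 0.26, edgeR adjusted p = 0.0625). The Krt8 call was lost without Mel322-34 replicate 1 or 3 or MGO.53 replicate 2 or 4 (adjusted p from 0.0547 to 0.0928). It was also lost with length and GC trends removed (edgeR adjusted p = 0.061) and with DESeq2. The epithelial list as a whole did not move 1 way: of its 7 tested markers 1 was called. The log2 fold change was below 0 in 4 of them and above 0 in 3, with a median of -0.029. Of 36 interferon-stimulated genes 1 fell (2.78%, near the 2.84% of all genes tested). That gene was Usp18, at 7.61, 9.28, 4.88 and 7.01 CPM and 9.33, 14.997, 7.26 and 12.7 CPM (-0.61 ± 0.17, edgeR adjusted p = 0.0314). DESeq2 and limma-voom did not call Usp18. In both groups the library with the highest epithelial sum, replicate 2, also had the highest Usp18 level. B2m, the light chain of MHC class I, fell with a log2 fold change of -0.19 ± 0.054 (edgeR adjusted p = 0.03). The calls of both genes were lost without Mel322-34 replicate 3 or 4 or MGO.53 replicate 2 or 4 (adjusted p from 0.0645 to 0.158) and with the length trend removed. The number of interferon genes that fell was 11 without Mel322-34 replicate 2 and 7 without MGO.53 replicate 3. Over all 36 the median log2 fold change was -0.21, with 30 values below 0, 6 above and 12 at an unadjusted p under 0.05. Relative to the MGO.53 mean the list's median was -0.28, 0.13, -0.50 and -0.26 in the Mel322-34 replicates. In the MGO.53 replicates it was -0.16, 0.16, -0.28 and 0.20, so the groups overlapped. The part of the epithelial transcripts in these values was not tested further than by a fit with their log2 sum as a covariate. In it 389 genes were called in all, and Krt8, Usp18 and B2m were not. Krt8 is itself a part of that sum, so the loss of its own call there is no test. The other named genes that lost their call in that fit were Tgfbr1, Smurf2, Tgfb1, Chst11, S100a6, Nr4a1, Sod3, Tfrc, Mrps7, Ccng1, Hspa13 and Stub1. Of 24 NF-kB targets and cytokines edgeR called 0, with 4 at an unadjusted p under 0.05, and DESeq2 and limma-voom called 0. Their median log2 fold change was -0.15, with 19 values below 0 and 5 above. Without Mel322-34 replicate 2, 6 fell, and 1 fell without MGO.53 replicate 1.

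Where Mel322-34 differed from the other antibodies was tested in the same fit. Against MGO.53, Mel321-31 had 206 genes higher (1.41%) and 311 lower (2.13%), and Mel321-35 had 5 higher (0.0342%) and 1 lower (0.00683%). Both comparisons with MGO.53 use the same 4 control libraries, so only direct differences are tested. Against Mel321-31, 3 genes were called and all were higher with Mel322-34 (0.0205% of genes tested): Scube3, Pmepa1 and Erbb3. Scube3 was at 27.9, 27.99, 26.9 and 27.4 CPM in the Mel321-31 replicates, between the levels with Mel322-34 and MGO.53 (log2 difference 0.32 ± 0.055, edgeR adjusted p = 0.0168). Pmepa1 measured 42.7, 41.4, 44.1 and 42.4 CPM there (0.29 ± 0.048, edgeR adjusted p = 0.0168) and Erbb3 65.1, 72.7, 67.8 and 70.9 CPM (0.25 ± 0.044, edgeR adjusted p = 0.0229). In all 3 genes every Mel322-34 library was above every Mel321-31 library. Their log2 fold changes against MGO.53 were 0.54, 0.38 and 0.43 with Mel322-34 and 0.22, 0.094 and 0.18 with Mel321-31. Fn1 was not called (0.25 ± 0.048, edgeR adjusted p = 0.0629). These calls depended on single libraries: without Mel322-34 replicate 1 or 4, or without Mel321-31 replicate 2, 3 or 4, edgeR called 0 genes, with 1001 to 1111 at an unadjusted p under 0.05, and 2 were called without Mel322-34 replicate 2 or 3 or Mel321-31 replicate 1. Of the 2 called without Mel322-34 replicate 3, 1 was among these 3. Scube3 was called in 3 of the 8 fits that left out 1 library, Pmepa1 in 2 and Erbb3 in none, with highest edgeR adjusted p of 0.158, 0.124 and 0.159. Scube3 was also not called with the length trend removed.

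Against Mel321-35, of which 2 libraries entered the fit, 28 genes were higher with Mel322-34 (0.191%) and 10 lower (0.0683%). Pmepa1 was at 39.4 and 39.2 CPM with Mel321-35 (log2 difference 0.40 ± 0.060, edgeR adjusted p = 0.0026), Fn1 at 56.6 and 56.5 CPM (0.39 ± 0.060, edgeR adjusted p = 0.0026) and Scube3 at 25.4 and 25.7 CPM (0.43 ± 0.069, edgeR adjusted p = 0.00289). Each of these values lay below all 4 Mel322-34 libraries. The largest differences on the higher side were those of Hipk2 (0.51 ± 0.080, edgeR adjusted p = 0.0026), a kinase of the DNA damage response, and Xylt1 (0.51 ± 0.11, edgeR adjusted p = 0.0367), which starts glycosaminoglycan chains and was not called with the length trend removed. On the lower side stood Relb, a subunit of NF-kB, and Junb, a subunit of AP-1. Relb measured 8.32, 10.6, 7.17 and 9.75 CPM with Mel322-34, 9.27, 10.4, 9.32 and 9.36 CPM with MGO.53 and 11.6 and 27.2 CPM with Mel321-35 (-1.10 ± 0.18, edgeR adjusted p = 0.00485). Junb measured 35.6, 40.96, 30.3 and 36.7 CPM, 35.8, 43.5, 33.8 and 35.4 CPM and 41.7 and 108 CPM (-1.04 ± 0.18, edgeR adjusted p = 0.00531). In both genes Mel322-34 and MGO.53 overlapped and Mel321-35 replicate 4 was the highest library. The comparison rests on that library: without Mel321-35 replicate 4, edgeR called 0 genes (730 at an unadjusted p under 0.05), with the lone remaining library assumed to vary like the other groups. The count was 15 without Mel322-34 replicate 1, 12 without Mel322-34 replicate 3 and 58 without Mel322-34 replicate 4.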

How the data were processed

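Polyadenylated RNA of B16-F10 cells was sequenced from strand-specific libraries, per the labels' protocols. The deposited raw counts per gene were made by the authors with STAR 2.7.10a and HTSeq 2.01, tools named in the submitters' processing notes with DESeq2; for the genome build, annotation and strand setting of the counting: not given in the sources used here. A second deposited table holds a normalised signal for 19365 genes, which equals the authors' raw count divided by a size factor per library, and entered no test. Mel321-35 replicate 2 is not analysed here, and Mel321-35 replicate 1, of batch 2, entered only a fit with a batch term.

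The 14 libraries of batch 1 were fitted together with edgeR 4.0.16 in R 4.3.3 (filterByExpr, TMM scaling, quasi-likelihood F-test, Benjamini-Hochberg adjustment over 14633 genes, threshold 0.05). The SE of a log2 fold change was taken from the F statistic. Levels are CPM after TMM scaling. Transcript lengths come from the longest GENCODE transcript of each gene, and the length trend of each library was removed as a spline with 4 degrees of freedom. For the correlation of each library's levels with length and the medians per library, log2 values were taken after adding 0.5 CPM. Alternatives used limma 3.58.1 (voom), DESeq2 1.42.0, other scalings, filters and thresholds, a replicate block, an epithelial covariate and each library left out in turn. The fit was tested on simulated data. The comparison, its gene lists and alternatives were chosen with earlier results of these data known. Genes were named by size of change, p, level, place among the smallest p of a gene list, or p against Mel321-31, and Hspa8, Hspa1b, Krt8 and Krt18 in any case; the exceptions are marked in the text. A few genes are counted in their lists but not reported here by name.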

Additional observations from a re-analysis of the deposited data

Results flagged for a closer look

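Of 164 groups of 4 libraries checked, over most genes named in the report and 4 measures of the libraries, 10 (6.1%) held a library that stood apart from the other 3 by Dixon's criterion; chance gives about 1 in 20. In the MGO.53 group these were Spsb1 in replicate 3 (17.8 CPM), Rpl19 in replicate 3 (910 CPM), Eef1a1 in replicate 2 (6574 CPM), Bptf in replicate 1 (141 CPM) and P4ha1 in replicate 4 (96.6 CPM). In the Mel322-34 group they were Tgfb1 in replicate 3 (10.7 CPM), Ftl1 in replicate 1 (3754 CPM), Psmd3 in replicate 1 (237 CPM), Cep192 in replicate 4 (64.7 CPM) and Hspa13 in replicate 3 (83 CPM).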

How the results depend on the processing

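The count of genes called with Mel322-34 against MGO.53, 1005, was 404 with the length trend removed and 288 with length and GC trends removed, the latter chosen after seeing the data. It was 247 at an adjusted p under 0.01 and 389 with the epithelial covariate. A test against a 1.5-fold change with edgeR called 0, with 105 genes at an unadjusted p under 0.05. Leaving out 1 library gave 327 to 1051. DESeq2 called 1258 and limma-voom 908. Against Mel321-31 (3 genes) DESeq2 called 10, and leaving out 1 library gave 0 to 2. Against Mel321-35 (38 genes) DESeq2 called 100, limma-voom 22, and either removal of trends 25, and leaving out 1 library, added after seeing the data, gave 0 to 58. Of 75 called genes named, 60 were called in all 8 fits without 1 library; 16 were lost with the length trend removed, 36 with length and GC, 2 with DESeq2 and 1 with limma-voom. No sign reversed in these fits. The causes were not tested.

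The replicate numbers do not pair the libraries by the labels. Same-numbered libraries of Mel322-34 and MGO.53 had deviations correlated at 0.0225 to 0.245, and 2 of 4 matched their own number best. With a replicate block, 1209 genes were called against MGO.53, 6 against Mel321-31 and 16 against Mel321-35.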

Other observations

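Of 23 genes of the integrated stress response, which slows translation under stress, 3 fell (13%, against 2.84% of all genes tested). The falls were 6 without Mel322-34 replicate 2 and 1 without Mel322-34 replicate 3 or MGO.53 replicate 2. Of 21 genes of MHC class I presentation 2 fell (9.52%), with 7 without Mel322-34 replicate 2 and 4 without MGO.53 replicate 3. There were 0 falls without Mel322-34 replicate 3 or 4 or MGO.53 replicate 2 or 4, and 0 with the length trend removed. In cholesterol synthesis and uptake 1 of 24 genes rose and 1 fell (4.17% each, near the 4.03% and 2.84% of all genes tested). Among 32 lysosomal genes 1 rose (3.12%) and 2 fell (6.25%), and among 19 subunits of the vacuolar proton pump 1 rose (5.26%). These calls rest on single libraries: edgeR called no gene of these 3 lists when replicate 3 or 4 of Mel322-34 or replicate 2 or 4 of MGO.53 was left out, and 2 genes of the cholesterol list and 2 of the pump fell without Mel322-34 replicate 1. Of 16 snoRNA host genes edgeR called 0, with 1 at an unadjusted p under 0.05, and DESeq2 and limma-voom called 0. Of 17 histone genes edgeR, DESeq2 and limma-voom called 0, with 0 at an unadjusted p under 0.05. Of 30 genes of SR proteins and hnRNPs, which steer splicing, edgeR called 0, with 5 at an unadjusted p under 0.05, DESeq2 called 1 higher and 1 lower and limma-voom 1 lower.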
